A study of Mus musculus with 8 samples.

Results

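The genes described here are 10 well-known transcriptional targets of the tumour suppressor p53, namely Mdm2, Ccng1, Bax, Bbc3, Pmaip1, Trp53inp1, Phlda3, Zmat3, Sesn1 and Perp. They were chosen by name, with earlier results of these data known. Every probe set of the array whose annotation gave exactly 1 of these symbols was taken. This gave 17 probe sets for 9 of the 10 genes, out of 34945 probe sets for 18193 genes on the array. Bax was not analysed here. Of the 17 probe sets, 16 passed the filter on low signal and were tested, so that each of the 9 genes had at least 1 tested probe set.

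Expression was measured on 8 Affymetrix arrays of total liver RNA from male mice aged 7 to 10 weeks, of strain C57BL/6 or, for Tob1 null, on a C57BL/6 background. The 4 groups were wild type at 0 h, wild type at 24 h, Tob1 null at 0 h and Tob1 null at 24 h, where 0 h stands for normal adult liver and 24 h for the liver remaining 24 h after partial hepatectomy under ketamine and xylazine. The design text lists no sham-operated animals, so surgery, anaesthesia and loss of liver mass cannot be told apart. There were 2 arrays in every group. RNA from 3 animals was pooled for an array, with other animals in each pool, so the errors are the spread between pools. Tob1 null is an inherited deficiency of an antiproliferative protein of the BTG/TOB family, and the comparisons ask how the liver responds to hepatectomy with and without it.

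p53 is a transcription factor that is kept scarce by Mdm2, a ubiquitin ligase that marks it for degradation. DNA damage and other stress free p53 from Mdm2, and it then switches on genes for cell cycle arrest, repair, antioxidant defence and cell death, and also Mdm2 itself, which closes a negative feedback loop. In the liver, hepatocytes that are normally quiescent enter the cell cycle after partial hepatectomy, and p53 target genes are followed there as a readout of replication stress and of the brake on proliferation.

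The promoters of 3 members are printed, Mdm2 and Phlda3 for their response to hepatectomy. Ccng1 is printed for the differences between the genotypes described below, none of which, as reported, had an adjusted limma p under 0.05. Each sequence is the RefSeq window of 300 bases that runs from 250 bases before the gene's start to 50 bases after it, on build GRCm38.p6, read 5′ to 3′ on the gene's own strand. Capitals mark exact matches to the p53 decamer, a consensus of 10 bases. A full p53 site is a pair of such decamers. In Ccng1 the capitals mark an adjacent pair, with 1 mismatch allowed.
Ccng1, chr11:40755237-40755536, minus strand: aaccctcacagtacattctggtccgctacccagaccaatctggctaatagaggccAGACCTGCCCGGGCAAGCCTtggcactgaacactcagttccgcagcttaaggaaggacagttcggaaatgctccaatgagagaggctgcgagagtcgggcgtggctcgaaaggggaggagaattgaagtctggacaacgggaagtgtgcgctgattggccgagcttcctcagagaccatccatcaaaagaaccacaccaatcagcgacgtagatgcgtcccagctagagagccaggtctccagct
Mdm2, chr10:117710709-117711008, minus strand: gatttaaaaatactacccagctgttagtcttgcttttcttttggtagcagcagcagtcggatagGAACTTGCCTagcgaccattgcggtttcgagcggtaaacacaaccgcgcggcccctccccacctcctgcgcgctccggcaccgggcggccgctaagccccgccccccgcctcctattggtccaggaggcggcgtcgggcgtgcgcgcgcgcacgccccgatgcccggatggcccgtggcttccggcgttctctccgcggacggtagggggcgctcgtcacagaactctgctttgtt
Phlda3, chr1:135765835-135766134, plus strand: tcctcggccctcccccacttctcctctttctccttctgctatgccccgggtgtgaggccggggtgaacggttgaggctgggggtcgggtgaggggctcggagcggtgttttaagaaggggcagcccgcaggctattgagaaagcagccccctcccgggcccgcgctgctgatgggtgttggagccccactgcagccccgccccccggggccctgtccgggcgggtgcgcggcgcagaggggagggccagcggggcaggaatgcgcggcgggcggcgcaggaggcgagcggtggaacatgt

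The Ccng1 window held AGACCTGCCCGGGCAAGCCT, which begins 195 bases before the start and joins 2 decamers with no gap, with at most 1 mismatch to the consensus and none at its conserved C and G. Only 22 of 32851 promoter windows of this length, 0.067%, held such a pair on either strand. The Mdm2 window held a single exact decamer, GAACTTGCCT, which begins 186 bases before the start. An exact decamer was found in 2745 windows, 8.36% of all. The Phlda3 window held none, which says only that these letters are not in this window. In all, 6 of the 10 genes, Bax among them, had a window that was kept, 9 windows together. Of these, 4 held a decamer and 1 held the adjacent pair. Member windows on 1 chromosome were left out of these counts but not of the shares over all windows. A match describes the sequence and is not evidence of binding in these livers.

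The arrays of a group correlated with each other at 0.951 to 0.959. Of the hepatocyte markers, 9 of 10 were matched and together gave a summed linear signal of 72000 to 79200, so the liver label fits the arrays. The targeted gene did not check the genotype labels. The brighter of the Tob1 probe sets read 9.87 to 10.53 in wild type and 10.58 to 11.10 in the arrays labelled null, while the dimmer read 4.02 to 5.19 and 2.65 to 4.06. Where these probe sets lie relative to the deleted part of Tob1 was not analysed here, so these arrays are called null-labelled from here on, and a direction between genotypes is taken from the labels alone.

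Levels are log2 signals after quantile normalisation, a difference of 1 is a doubling, and a probe set is called changed at a limma adjusted p under 0.05 over all 30525 probe sets tested. Among the p53 targets, Phlda3 and Mdm2 rose at 24 h in null-labelled livers, and in the average over both genotypes Phlda3 and Mdm2 rose and Trp53inp1 fell. The other 6 measured genes did not pass in any of the 6 planned comparisons. In wild type 0 of the 16 member probe sets were called, where 5.34% of all probe sets were. In null-labelled livers 3 of 16 were called, all higher at 24 h, where 10.8% of all probe sets were called, 6.06% higher and 4.72% lower. In the averaged response 4 of 16 were called, 3 higher and 1 lower, where 23.8% of all were, 12.4% higher and 11.4% lower. That share of 4 in 16 is near the background. With no adjustment, 3, 5 and 8 member probe sets had a limma p under 0.05 in the wild type, null-labelled and averaged responses, where 26.2%, 30.8% and 38.8% of all did. The median response of the 16 was 0.11 in wild type, 0.07 in null-labelled livers and 0.14 on average. Over all probe sets the medians were -0.00, -0.02 and -0.02. Where arrays of groups are said below to lie apart or to overlap, the share of all probe sets that do so was not counted. Such a separation is not read as particular to these genes.

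**Figure D1:**
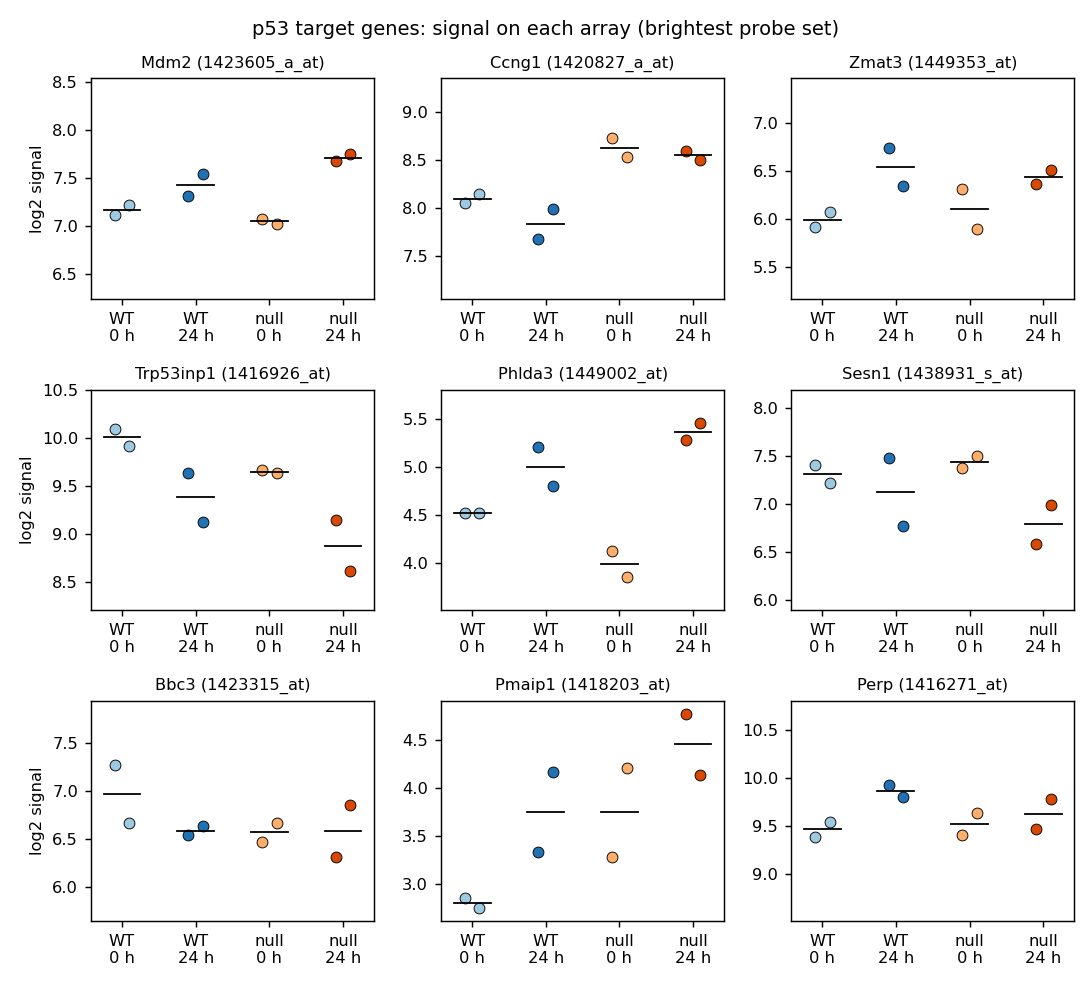
Log2 signal (vertical axis) of the brightest probe set of each of the 9 measured p53 target genes in the 4 groups (horizontal axis), with 1 point for each array. Every panel spans the same number of log2 units. Both 24 h groups of Mdm2, Zmat3 and Phlda3 lie above all 0 h arrays. All null-labelled arrays of Ccng1 lie above all wild type arrays. How many of all probe sets lie apart in these ways was not counted.

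Mdm2, the ubiquitin ligase that restrains p53, is both a target and the inhibitor of p53. Its brightest probe set, 1423605_a_at, read 7.11 and 7.21 in wild type at 0 h and 7.31 and 7.54 at 24 h, and 7.08 and 7.02 in null-labelled livers at 0 h and 7.67 and 7.75 at 24 h. A further probe set, 1427718_a_at, read 6.77 and 6.45, then 6.82 and 7.12 in wild type, and 6.56 and 6.43, then 7.28 and 7.28 in null-labelled livers. In both probe sets every 24 h array was above every 0 h array, and the highest values were those of the null-labelled livers at 24 h. The third, 1457929_at, read between 2.67 and 3.52, was under the filter limit of 3.60 on all 8 arrays and was not tested.

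In null-labelled livers Mdm2 rose by 0.66 ± 0.14 (SE, n = 2 arrays against 2; adjusted p = 0.0421), a 1.58-fold difference, and by 0.78 ± 0.18 (adjusted p = 0.0469) in the further probe set. In wild type the differences were 0.26 ± 0.14 (adjusted p = 0.304) and 0.36 ± 0.18 (adjusted p = 0.266). Averaged over genotypes, Mdm2 rose by 0.46 ± 0.10 (adjusted p = 0.0253) and 0.57 ± 0.13 (adjusted p = 0.0259). The responses of the genotypes differed by 0.40 ± 0.20 (adjusted p = 0.681) and 0.43 ± 0.25 (adjusted p = 0.712), so a larger rise in null-labelled livers was not shown. The calls lie close to the threshold. Both calls in null-labelled livers are lost when any of the 8 arrays is left out, with differences of 0.62 to 0.85 and adjusted p of 0.0531 to 0.165, and those of the averaged response are lost without 6 of the 8 arrays each. Averaged over genotypes, the brightest probe set keeps its call only without replicate 1 of wild type or of null-labelled livers at 24 h (adjusted p = 0.043 and 0.0434), and the further one only without replicate 1 of wild type at 0 h or at 24 h (0.0458 and 0.0435).

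Phlda3, a small pleckstrin homology protein that competes with Akt for membrane lipids and so dampens Akt signalling, gave the largest called response of any member. Its only probe set read 4.53 and 4.52 in wild type at 0 h, 5.21 and 4.81 at 24 h, 4.13 and 3.86 in null-labelled livers at 0 h, and 5.28 and 5.46 at 24 h. All 24 h arrays were above all 0 h arrays, and at 0 h the null-labelled arrays were below both wild type arrays. Phlda3 rose by 1.37 ± 0.19 (adjusted p = 0.0203), 2.59-fold, in null-labelled livers, and by 0.93 ± 0.14 (adjusted p = 0.009) on average. In wild type the difference was 0.49 ± 0.19 (adjusted p = 0.179).

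The response of Phlda3 was 0.89 ± 0.27 larger in null-labelled livers, with a 95% interval of 0.23 to 1.55, but this did not pass over all probe sets (unadjusted p = 0.0167, adjusted p = 0.601). The genotypes differed by -0.53 ± 0.19 at 0 h (adjusted p = 0.513) and by 0.36 ± 0.19 at 24 h (adjusted p = 0.579). The call in null-labelled livers is lost without replicate 1 of null-labelled livers at 0 h (1.52, adjusted p = 0.0913), without replicate 2 at 0 h (1.24, adjusted p = 0.0869) and without replicate 2 at 24 h (1.26, adjusted p = 0.0694). Because Phlda3 was dim, adding 16 on the linear scale to damp low signals lowered its rise to 0.84 in null-labelled livers and 0.57 on average, with both calls kept.

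Markers of other liver cells and the RNA controls also differed between groups. The summed linear signal of 4 bile duct cell markers was 119 to 125 in wild type at 0 h, 159 to 263 at 24 h, 63.2 to 111 in null-labelled livers at 0 h and 122 to 156 at 24 h, with none of these markers at 0. In wild type this difference lay in Sox9, at 6.01 and 6.10 and then 7.71 and 6.59 in log2 signal, while Epcam, a defining marker, read 3.84 and 3.72 and then 3.44 and 3.48. The 7 endothelial markers summed to 1330 to 1340 and 995 to 1210 in wild type at 0 h and 24 h, and to 914 to 1110 and 1130 to 1280 in null-labelled livers, where 1 of the 7 rose and the median difference was 0.55. The 7 stellate cell markers summed to 882 to 1070 and 629 to 883 in wild type and to 734 to 976 and 534 to 564 in null-labelled livers, where 2 of them fell. The markers of Kupffer cells and leucocytes summed to 1430 to 1620, 1210 to 1460, 1440 to 1450 and 1380 to 1400 in the same order of groups, and Cd3e was under the filter limit on all arrays. Of single markers, the macrophage marker Cd68 followed the order of Phlda3 over the groups. Its log2 signal was 5.77 and 5.70, then 6.24 and 6.22 in wild type, and 4.97 and 4.64, then 6.80 and 6.84 in null-labelled livers. The endothelial marker Pecam1 shared only part of that order. Its log2 signal was 4.68 and 4.42, then 4.97 and 5.26 in wild type, and 3.66 and 3.91, then 4.96 and 4.62 in null-labelled livers. Pecam1 was thus not highest in null-labelled livers at 24 h. These 2 markers were chosen after their values were seen, and others of their lists went the other way. Of the 10 tested Kupffer cell and leucocyte markers, 3 rose and 3 fell on average, and 7 had negative differences. Of the 7 endothelial markers, 1 rose and 0 fell on average, and 3 had negative differences. The log2 ratio of the 3′ to the 5′ actin control, a sign of RNA integrity, was 1.22 ± 0.25 and 0.97 ± 0.09 (SD, n = 2) in wild type at 0 h and 24 h, and 1.56 ± 0.03 and 1.27 ± 0.07 in null-labelled livers. Their part in the responses was not tested. In whole liver, fewer cells of a type and less RNA per cell cannot be told apart.

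**Figure D2:**
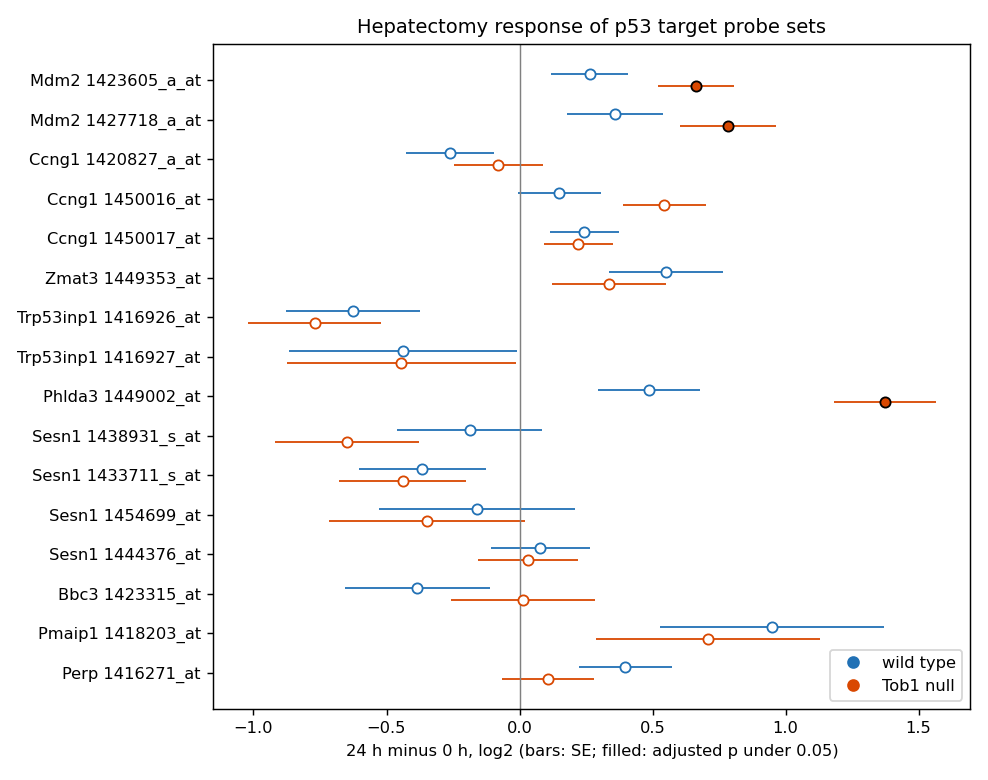
Difference between 24 h and 0 h in log2 units (horizontal axis) for each tested member probe set (vertical axis) in wild type and in null-labelled livers. Points are estimates, bars are SE, and filled points had an adjusted p under 0.05. The 3 filled points are Phlda3 at 1.37 and the Mdm2 probe sets at 0.66 and 0.78, all in null-labelled livers.

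Trp53inp1 encodes a stress protein that takes part in p53 activation, autophagy and cell death. Its brighter probe set, 1416926_at, read 10.09 and 9.92 in wild type at 0 h and 9.64 and 9.12 at 24 h, and 9.66 and 9.63 in null-labelled livers at 0 h and 9.14 and 8.61 at 24 h. Within each genotype both 24 h arrays lay below both 0 h arrays. It fell by 0.70 ± 0.18 on average (adjusted p = 0.0377), and was the only member probe set called lower. In wild type and null-labelled livers separately the differences were -0.63 ± 0.25 (adjusted p = 0.183) and -0.77 ± 0.25 (adjusted p = 0.1). The call is lost without 6 of the 8 arrays, with adjusted p of 0.0769 to 0.105, and is kept only without replicate 1 of wild type or of null-labelled livers at 24 h. The dimmer probe set, 1416927_at, gave -0.44 ± 0.30 on average (adjusted p = 0.332) and spanned 4.97 to 6.98 over the arrays.

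Sesn1, a sestrin that restrains mTORC1 signalling and takes part in antioxidant defence, had 4 probe sets, none called. The brightest, 1438931_s_at, read 7.41 and 7.22 in wild type at 0 h, 7.48 and 6.78 at 24 h, 7.38 and 7.50 in null-labelled livers at 0 h, and 6.59 and 7.00 at 24 h. Its wild type arrays overlapped between the times, while both null-labelled arrays at 24 h lay below those at 0 h. Its averaged response was -0.42 ± 0.19 (adjusted p = 0.166), and those of the others were -0.40 ± 0.17, -0.25 ± 0.26 and 0.06 ± 0.13. The -0.25 of 1454699_at became -0.55 and was called (adjusted p = 0.0412) without replicate 1 of wild type at 24 h.

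Zmat3 encodes a zinc finger protein that binds RNA and acts downstream of p53 in growth suppression. It read 5.91 and 6.07 in wild type at 0 h and 6.74 and 6.34 at 24 h, and 6.31 and 5.89 in null-labelled livers at 0 h and 6.36 and 6.51 at 24 h. Every 24 h array was above every 0 h array, but the margin was small: the lowest 24 h array read 6.34 and the highest 0 h array 6.31. The averaged difference of 0.44 ± 0.15 did not pass (adjusted p = 0.0842), though it did under 3 of 16 alternatives (median centring, the 60th percentile filter, and the trended and robust prior; lowest adjusted p = 0.0422), and neither did that in wild type, 0.55 ± 0.21, or in null-labelled livers, 0.34 ± 0.21.

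Ccng1 encodes cyclin G1, a p53 target that recruits a phosphatase to Mdm2 and so feeds back on p53. Its brightest probe set, 1420827_a_at, read 8.04 and 8.14 in wild type at 0 h, 7.67 and 7.99 at 24 h, 8.72 and 8.53 in null-labelled livers at 0 h, and 8.59 and 8.50 at 24 h. All 4 null-labelled arrays were above all 4 wild type arrays. Between the times, both wild type arrays at 24 h lay below those at 0 h while the null-labelled arrays overlapped, and the averaged response of -0.17 ± 0.12 did not pass (adjusted p = 0.335). The probe set 1450017_at read 6.99 and 7.10, then 7.28 and 7.30 in wild type, and 7.47 and 7.36, then 7.59 and 7.68 in null-labelled livers, again with all null-labelled arrays above all wild type arrays. The third, 1450016_at, read 7.42 and 7.19, then 7.35 and 7.56 in wild type, and 7.37 and 7.48, then 7.93 and 8.01 in null-labelled livers, where only the 24 h groups were apart. The response of 1450016_at was 0.54 ± 0.16 in null-labelled livers (adjusted p = 0.0763) and 0.15 ± 0.16 in wild type, with an averaged response of 0.35 ± 0.11 (adjusted p = 0.0695). It was called under 4 of 16 alternatives in null-labelled livers (lowest adjusted p = 0.0238) and under 5 of 15 on average (0.0258), among them the deposited values, the 60th percentile filter, the trended and robust prior and 16 added. The response of 1450017_at was 0.22 ± 0.13 in null-labelled livers and 0.24 ± 0.13 in wild type. These 3 probe sets were designed from the same source transcript, so they are not independent measurements.

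Null-labelled livers exceeded wild type in Ccng1 by 0.53 ± 0.17 at 0 h (adjusted p = 0.457) and by 0.72 ± 0.17 at 24 h (adjusted p = 0.307) in the brightest probe set. For 1450017_at the differences were 0.37 ± 0.13 and 0.35 ± 0.13 (adjusted p = 0.508 and 0.46), and for 1450016_at they were 0.12 ± 0.16 and 0.52 ± 0.16, the latter with an adjusted p of 0.393. Averaged over both times, a comparison added after the values were seen, the 3 probe sets gave 0.62 ± 0.12, 0.36 ± 0.09 and 0.32 ± 0.11, with adjusted p of 0.214, 0.291 and 0.386. None of these passed. With a trended and robust prior the averaged difference of the brightest probe set did pass (adjusted p = 0.0238). The actin 3′ to 5′ ratio was also higher in null-labelled livers at either time. The log2 ratio of the Gapdh control was 0.23 ± 0.07 in wild type and 0.52 ± 0.02 in null-labelled livers at 0 h (SD, n = 2). At 24 h it was 0.07 ± 0.10 and 0.16 ± 0.12, and the arrays of the genotypes overlapped. The part of these ratios in the Ccng1 difference was not tested.

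Neither at 0 h nor at 24 h was any member called between genotypes, and the same held for the difference between the responses and for the averaged genotype difference. In each of these 4 comparisons 0% of all 30525 probe sets were called by limma. With no adjustment, 3 member probe sets had a limma p under 0.05 at 0 h (Phlda3 and 2 of Ccng1) and 3 at 24 h (those of Ccng1). So did 1 in the difference between responses (Phlda3) and 4 in the averaged difference (those of Ccng1 and Pmaip1). Of all probe sets 9.1%, 10.3%, 7.97% and 11.4% did, in the same order.

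**Figure D3:**
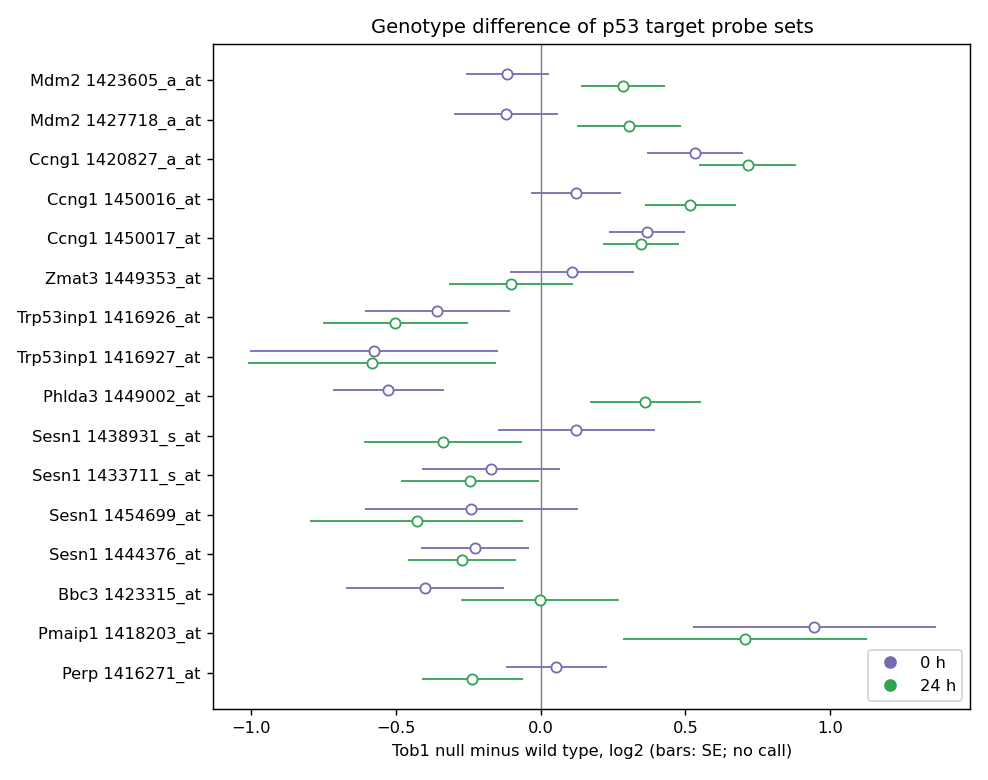
Difference between null-labelled and wild type livers in log2 units (horizontal axis) for each tested member probe set (vertical axis) at 0 h and at 24 h. Points are estimates and bars are SE, and no point is filled, since none had an adjusted p under 0.05. The Ccng1 probe set 1420827_a_at stands at 0.53 and 0.72, and Phlda3 lies at -0.53 at 0 h and 0.36 at 24 h.

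Bbc3, Pmaip1 and Perp, which act in cell death, did not pass in any comparison. Bbc3 encodes PUMA, a BH3-only protein that triggers mitochondrial apoptosis. It read 7.27 and 6.67 in wild type at 0 h, 6.54 and 6.63 at 24 h, 6.47 and 6.67 in null-labelled livers at 0 h, and 6.31 and 6.86 at 24 h. Only wild type had its times apart, with both 24 h arrays just below both 0 h arrays, and the averaged response was -0.19 ± 0.19 (adjusted p = 0.521).

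Pmaip1 encodes NOXA, another BH3-only protein, and was the dimmest member tested. It read 2.86 and 2.75 in wild type at 0 h, 3.34 and 4.17 at 24 h, 3.29 and 4.21 in null-labelled livers at 0 h, and 4.78 and 4.14 at 24 h. The wild type 0 h arrays were the lowest, and the arrays of the other groups overlapped. The averaged response was 0.83 ± 0.30 (adjusted p = 0.0948) and the averaged genotype difference 0.83 ± 0.30 (adjusted p = 0.401). With 16 added on the linear scale they were 0.36 and 0.37. Only 4 of the 8 arrays lay above the filter limit of 3.60. Both wild type 0 h arrays lay under it, as did replicate 1 of wild type at 24 h and of null-labelled livers at 0 h. These sizes therefore rest on dim signals.

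Perp encodes a membrane protein of desmosomes that also promotes apoptosis downstream of p53. It read 9.38 and 9.54 in wild type at 0 h, 9.92 and 9.80 at 24 h, 9.40 and 9.63 in null-labelled livers at 0 h, and 9.47 and 9.78 at 24 h. The wild type times were apart while the null-labelled times overlapped, and the differences were 0.40 ± 0.17 (adjusted p = 0.214) and 0.11 ± 0.17.

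**Figure D4:**
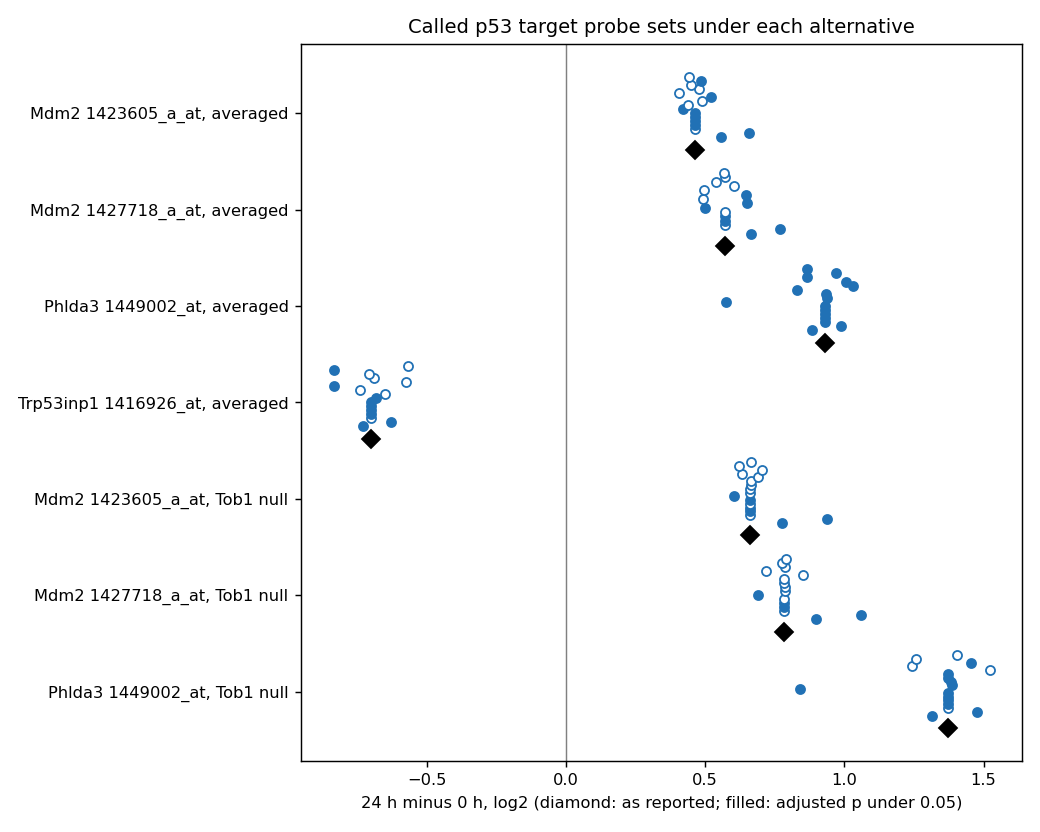
Difference between 24 h and 0 h in log2 units (horizontal axis) for the called member probe sets (vertical axis) as reported (diamond) and under each processing alternative (circles). Filled symbols had an adjusted p under 0.05. The averaged response of Phlda3 is filled throughout, between 0.57 and 1.03, while the others have open circles among the filled ones.

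The other genes of the pathway were described with the brightest probe set of each gene, over 14450 genes. Called genes made up 2.52% higher and 3.26% lower in wild type, 5.67% and 5.36% in null-labelled livers, and 12.1% and 13.1% on average. Of 23 tested p53 regulators, 0 rose and 0 fell in wild type, 1 rose and 1 fell in null-labelled livers, and 2 rose and 2 fell on average, with a median averaged response of -0.11 against -0.04 over all genes. Of 36 other p53 targets, 2 rose in wild type, 2 rose and 1 fell in null-labelled livers, and 6 rose and 1 fell on average, with a median of 0.20. Of 15 genes of the Bcl2 family, 1 fell in wild type, none was called in null-labelled livers, and 2 fell on average, with a median of -0.05. By the same count, 2 of the 9 members rose and 1 fell on average, with a median of 0.25.

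Among the regulators, the checkpoint kinase gene Chek1 rose by 3.06 ± 0.43 on average (adjusted p = 0.00818). It read 2.50 and 2.38 in wild type at 0 h, 4.40 and 5.60 at 24 h, 2.43 and 2.94 in null-labelled livers at 0 h, and 7.04 and 5.46 at 24 h. With 16 added to damp the low 0 h signals the rise was 1.63, still called. Atr, the kinase that activates Chek1 under replication stress, rose by 0.59 ± 0.10 (adjusted p = 0.0136). Mdm4, the partner of Mdm2 in restraining p53, fell by 0.52 ± 0.10 (adjusted p = 0.0168), from 7.41 to 7.49 at 0 h to 6.85 to 7.04 at 24 h over both genotypes. With median centring in place of quantile normalisation its difference was -0.33 and was not called (adjusted p = 0.105). The p53 relative Trp73 fell by 0.71 ± 0.16 (adjusted p = 0.0278), or by 0.40 with 16 added. The averaged call of Chek1 was kept without any 1 array. That of Atr was lost without replicate 1 of either genotype at 0 h (adjusted p = 0.0506 and 0.0508), that of Mdm4 without any 0 h array or replicate 1 of wild type at 24 h (0.0501 to 0.0591), and that of Trp73 without any wild type array or any null-labelled 24 h array (0.0611 to 0.0777).

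Among the other targets, Tigar, which lowers glycolytic flux, rose by 1.22 ± 0.10 on average (adjusted p = 0.0037), by 1.32 in wild type (adjusted p = 0.0229) and by 1.13 in null-labelled livers (adjusted p = 0.0177). It read 6.11 and 6.25 in wild type at 0 h, 7.45 and 7.55 at 24 h, 6.27 and 6.23 in null-labelled livers at 0 h, and 7.47 and 7.28 at 24 h, so that the times were far apart in either genotype. The membrane protein gene Cd82 fell by 0.85 ± 0.13 (adjusted p = 0.0105). The growth factor gene Tgfa rose by 0.85 ± 0.17 (adjusted p = 0.0182). Tnfaip8 rose by 0.54 ± 0.10 on average (adjusted p = 0.0168), or by 0.29 with 16 added, and its difference was 1.21 in null-labelled livers and -0.14 in wild type. The averaged calls of Tigar and Cd82 were kept without any 1 array. That of Tgfa was lost without replicate 1 of either genotype at 0 h (0.0605 and 0.061), and that of Tnfaip8 without either wild type 0 h array or replicate 1 of null-labelled livers at 0 h (0.0526 to 0.0592). In the separate genotypes, the Tigar call was lost in wild type without any 0 h array or replicate 1 of wild type at 24 h (0.0548 to 0.115), and in null-labelled livers without either of their 0 h arrays or their replicate 2 at 24 h (0.055 to 0.0935).

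Cdkn1a, the p21 inhibitor of cyclin-dependent kinases and the best known p53 target, did not pass. It read 7.81 and 6.78 in wild type at 0 h, 8.04 and 8.49 at 24 h, 6.76 and 8.13 in null-labelled livers at 0 h, and 7.08 and 8.23 at 24 h, with an averaged difference of 0.59 (adjusted p = 0.369). Its replicate pools differed by over 1 log2 unit in 3 of the 4 groups, so no order between groups could be read. Gadd45a and Btg2, which act in arrest after stress, gave -0.33 ± 0.45 (adjusted p = 0.63) and 0.78 ± 0.70 (adjusted p = 0.453). Their replicate pools also disagreed. In wild type at 24 h Gadd45a read 5.87 and 3.98, and Btg2 read 9.485 and 6.30. In the Bcl2 family, the genes Bok and Bmf, which promote apoptosis, fell on average by 0.80 ± 0.11 (adjusted p = 0.00808) and 0.87 ± 0.20 (adjusted p = 0.0306). The difference of Bok was -1.27 in wild type (adjusted p = 0.0246) and -0.32 in null-labelled livers (adjusted p = 0.217). At 0 h Bok read 7.30 and 7.46 in wild type and 6.48 and 6.67 in null-labelled livers. Its responses differed by 0.94, which did not pass (adjusted p = 0.584). Bmf fell by 0.49 with 16 added. Its call was lost without any wild type array or replicate 2 of null-labelled livers at either time. The survival gene Bcl2l1 gave 0.47 (adjusted p = 0.333).

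**Figure D5:**
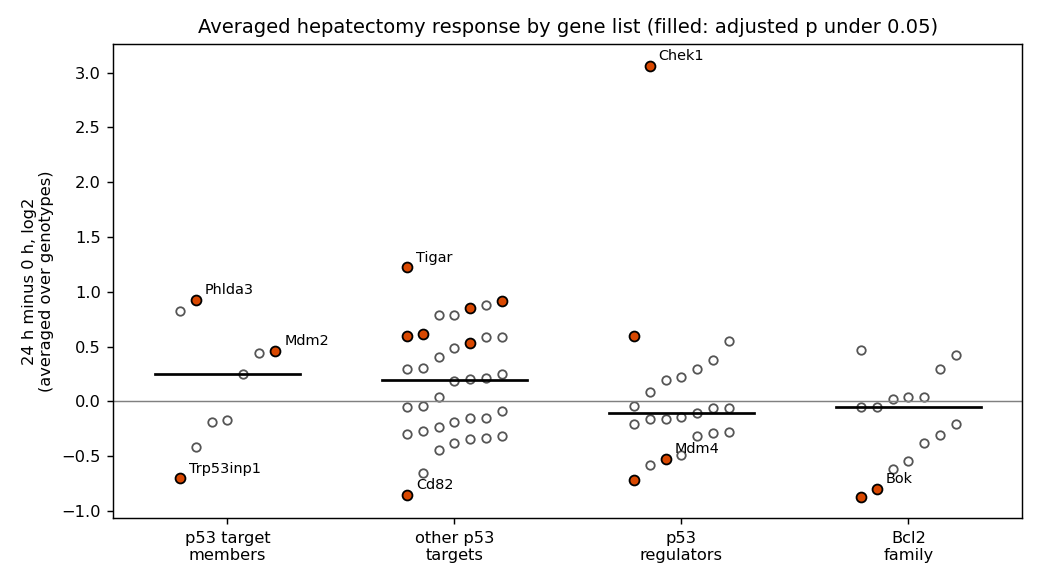
Averaged difference between 24 h and 0 h in log2 units (vertical axis) for each gene of the members, the other p53 targets, the p53 regulators and the Bcl2 family (horizontal axis), by brightest probe set. Horizontal bars are list medians, and filled points had an adjusted p under 0.05. The highest point is the regulator Chek1 at 3.06, and the members lie between -0.70 and 0.93.

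The genes most like a member were found by the root mean square difference of log2 values over the 8 arrays after centring each gene on its mean, among 14449 other genes. For Phlda3 these were Tuba1a (0.132), Nexn (0.143) and Qrsl1 (0.147), where the median gene differed by 0.623. For Mdm2 they were Bcdin3d (0.0480), Kctd2 (0.0642) and Mrps22 (0.0699), where the median was 0.413.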

How the data were processed

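Total liver RNA was labelled and hybridised to 8 Affymetrix arrays, per the labels' protocols. The deposited values of 45101 probe sets are log2 signals, as read from the values themselves; the signal algorithm was not given in the sources used here. The 64 controls were left out and the other 45037 probe sets were brought to common quantiles. A probe set was tested if it lay above the 40th percentile (3.60) on at least 2 arrays, which left 30525. The platform annotation gave exactly 1 symbol to 34945 probe sets, several to 932 and none to 9160.

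limma 3.58.1 (R 4.3.3) estimated a mean per group from the 8 arrays together, with variances moderated across probe sets (2.04 prior degrees of freedom beside 4 residual) and Benjamini-Hochberg adjustment over all probe sets tested, two-sided. Fits of 1 probe set per gene took the brightest. The number of arrays limits the precision. The procedure was tested on simulated data. The 6 planned comparisons were the 24 h response in each genotype and averaged over genotypes, the genotype difference at each time, and the difference between the responses. The members and gene lists were chosen with earlier results of these data known.

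All members are named. Of each further list, up to 4 genes with the smallest p in the averaged response among those called in any comparison are named, and always Mdm4, Cdkn1a, Gadd45a, Btg2 and Bcl2l1; Trp53 was not analysed here. Likeness was measured for the members called in the response of either genotype. The decamer search covered both strands of all promoter windows. Alternatives covered normalisation, filter, prior, damping, a replicate block, 1 probe set per gene, fits of the 2 groups compared and leaving out each array; the averaged genotype difference and a crossed block were chosen after seeing the data.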

Additional observations from a re-analysis of the deposited data

Results flagged for a closer look

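In 5 genes of the further lists, none of them a member, the times were apart in opposite directions in the genotypes. Every 24 h array lay on 1 side of the 0 h arrays in wild type and on the opposite side in null-labelled livers. The search covered the member probe sets and the tested genes of the further lists, 23, 36 and 15. The share of all probe sets that did so was not counted, so the 5 are not read as an excess. None of the differences between responses passed in limma over all probe sets. For Plk3, a stress kinase gene, the null-labelled response minus the wild type response was -2.24 (adjusted p = 0.514), with 6.48 and 6.36 at 0 h and 8.23 and 7.45 at 24 h in wild type, and 6.87 and 6.80, then 6.10 and 5.92 in null-labelled livers. Its rise of 1.42 in wild type was called (adjusted p = 0.042), and kept that call in the fits without 1 array only when replicate 2 of wild type at 24 h was left out (0.0568 to 0.165 otherwise). For Tnfaip8 the difference was 1.35 (adjusted p = 0.465) and for the death receptor gene Tnfrsf10b it was 1.72 (adjusted p = 0.608), with levels of 2.12 to 4.13. Trp53bp1 gave 0.658 (adjusted p = 0.601) and Triap1 0.606 (adjusted p = 0.601).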

How the results depend on the processing

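The called responses of Phlda3, Mdm2 and Trp53inp1 kept their direction in all alternatives run, and the averaged response of Phlda3 kept its call in 16 of 16 (adjusted p of 0.00244 to 0.0358). Its response in null-labelled livers kept the call in 12 of 17, and was lost with no filter (adjusted p = 0.0606) and with only the 2 groups fitted (0.07) besides the arrays named with it. For Mdm2 in null-labelled livers, the brightest probe set kept the call in 6 of 17 and the further one in 5 of 16. The count of member probe sets called in null-labelled livers, 3 as reported, was 0 with no filter, 0 with only the 2 groups compared, 5 with a trended and robust prior, 5 with 16 added, and between 0 and 1 when an array was left out. The averaged count of 4 became 1 with no filter, 6 with median centring, 6 with a filter at the 60th percentile and 6 with a trended and robust prior, and ranged from 1 to 5 when an array was left out. The averaged genotype difference, 0 as reported, became 1 with a trended and robust prior. The wild type count was 0 in every alternative. Of 105 comparisons of a member that were not called, 31 turned sign in some alternative and 6 were called in some.

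The replicate numbers did not pair the arrays, as same-numbered arrays' deviations correlated at -0.170 to 0.055. With the replicate block, 1 member probe set was called in null-labelled livers and 3 on average, and calls over all probe sets went from 1630 to 6 in wild type, 3289 to 704 in null-labelled livers and 7259 to 5370 on average. A crossed block, chosen after seeing the data, called 0 members between genotypes at 24 h. Over all probe sets, 12 were called in wild type and 71 in null-labelled livers with no filter, and 24 and 0 with only the 2 groups fitted. Median centring moved the median response of all probe sets in null-labelled livers from -0.02 to 0.11 and the calls there from 1849 higher and 1440 lower to 2232 and 784, and on average from 3792 and 3467 to 4192 and 2245; the members' median in null-labelled livers was then 0.27. Low signal limits the size given for Phlda3, 0.57 on average with 16 added.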

Other observations

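Further genes of the pathway were called but fall outside the naming rule, and were chosen after their values were seen. The apoptosis nuclease gene Aen, the autophagy gene Dram1 and the death domain gene Siva1 rose by 0.60, 0.91 and 0.61 on average in limma (adjusted p = 0.0247, 0.0276 and 0.0398). Each of these calls was lost without some arrays, 6 for Aen, 5 for Dram1 and 8 for Siva1. Dram1 rose by 0.34 with 16 added to damp low signals. Atm, the kinase that signals DNA breaks to p53, fell by 0.84 ± 0.20 in null-labelled livers (adjusted p = 0.0497), and lost that call in 13 of 17 alternatives, among them each fit without an array.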
